A study of Mus musculus with 8 samples.

Results

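The inflammasome and pyroptosis genes examined here are 9 of the 18901 genes measured by bulk RNA-seq of mouse cheek skin, chosen by name: the sensors Nlrp3, Nlrc4, Nlrp10 and Aim2, the adaptor Pycard, the inflammatory caspases Casp1 and Casp4, and the pore-forming gasdermins Gsdmd and Gsdma. The skin came from 4 TBX20fl/fl;K14-Cre mice, in which Cre under the keratin 14 promoter of keratinocytes deletes exons 2 and 3 of the transcription factor gene Tbx20, and from 4 TBX20fl/fl mice, which carry the floxed alleles without Cre. All 8 mice were 7-week-old females of C57BL/6 backgrounds (C57BL/6J for the floxed line and C57BL/6N for the Cre line), and all had 10 µg of brain natriuretic peptide (BNP), a peptide that evokes itch, injected into the dermis of 1 cheek. Scratching was recorded for 30 min and the skin was collected 5 h later. Each mouse gave 1 library, named here by genotype (knockout or control) and replicate number, and no skin without BNP was analysed here.

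Inflammasomes are protein complexes that assemble in the cytosol when a sensor detects microbial products or cell damage. The sensor recruits the adaptor ASC, encoded by Pycard, which in turn recruits and activates caspase-1. Active caspase-1 matures the cytokines interleukin-1 beta and interleukin-18 and cleaves gasdermin D, whose released part forms pores in the plasma membrane and drives the lytic cell death called pyroptosis. Mouse Casp4 encodes the protein also known as caspase-11, which is activated by cytosolic lipopolysaccharide and cleaves gasdermin D directly. In skin, both keratinocytes and immune cells carry parts of this machinery.

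The libraries held 16056282 to 19880654 counts. Control mouse 2 stood apart from the rest: its TMM scaling factor was 0.735 against 1.01 to 1.07 in the other 7 mice, and its median Spearman correlation with the other libraries over genes was 0.872 against 0.963 to 0.987. Its deposited FPKM values summed to 772536, against 521852 to 605508 in the other 7 mice. FPKM was used without rescaling, and values brought to a common FPKM total were not compared. Tbx20 itself had 0 to 2 counts per library in the knockout mice and 0 to 3 in the controls, so its loss was not detectable at this depth in whole skin. No gene passed an adjusted p of 0.05 in edgeR (0 of 17124 tested, lowest adjusted p = 0.498), and 1431 genes, 8.36%, had an unadjusted p under 0.05. The limma test on log2(FPKM + 1) likewise called 0 of 15969 genes (lowest adjusted p = 0.457), with 1046 genes, 6.55%, at an unadjusted p under 0.05, whereas DESeq2 called 10 genes, none of them among the 9. Because the tissue is bulk skin, fewer cells of a type and less RNA per cell cannot be told apart.

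No inflammasome or pyroptosis gene passed the adjusted threshold, and the values below are differences between group means that fell short of it. Of the 9 genes, 5 had an unadjusted edgeR p under 0.05, all with lower values in the knockout mice: Casp4, Aim2, Gsdmd, Casp1 and Pycard. Over all genes tested, 5.91% were lower at that p and 2.45% were higher. The count was also 5 without control mouse 2, where 4.50% of all genes were lower at that p, and it was 3 without knockout mouse 1, where 3.15% were. The median log2 fold change of the 9 genes was -0.63 (knockout minus control), against 0.026 over all genes tested. It was -0.40 without control mouse 2 and -0.42 without knockout mouse 1. The 9 log2 fold changes were all negative with TMM scaling, from -1.18 for Casp4 to -0.06 for Nlrp10, but those of Nlrc4 and Nlrp10 turned positive when single mice were left out. In limma on FPKM, 4 of the 9 had an unadjusted p under 0.05 (Casp4, Casp1, Aim2 and Pycard). In FPKM, the mean of Nlrc4 and of Nlrp10 was higher in the knockout mice. Knockout and control FPKM values did not overlap for Aim2, Casp1 and Casp4, 3 of the 9 genes, where 1.92% of all genes lay apart in that direction and 5.45% with the knockout mice higher.

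**Figure D1:**
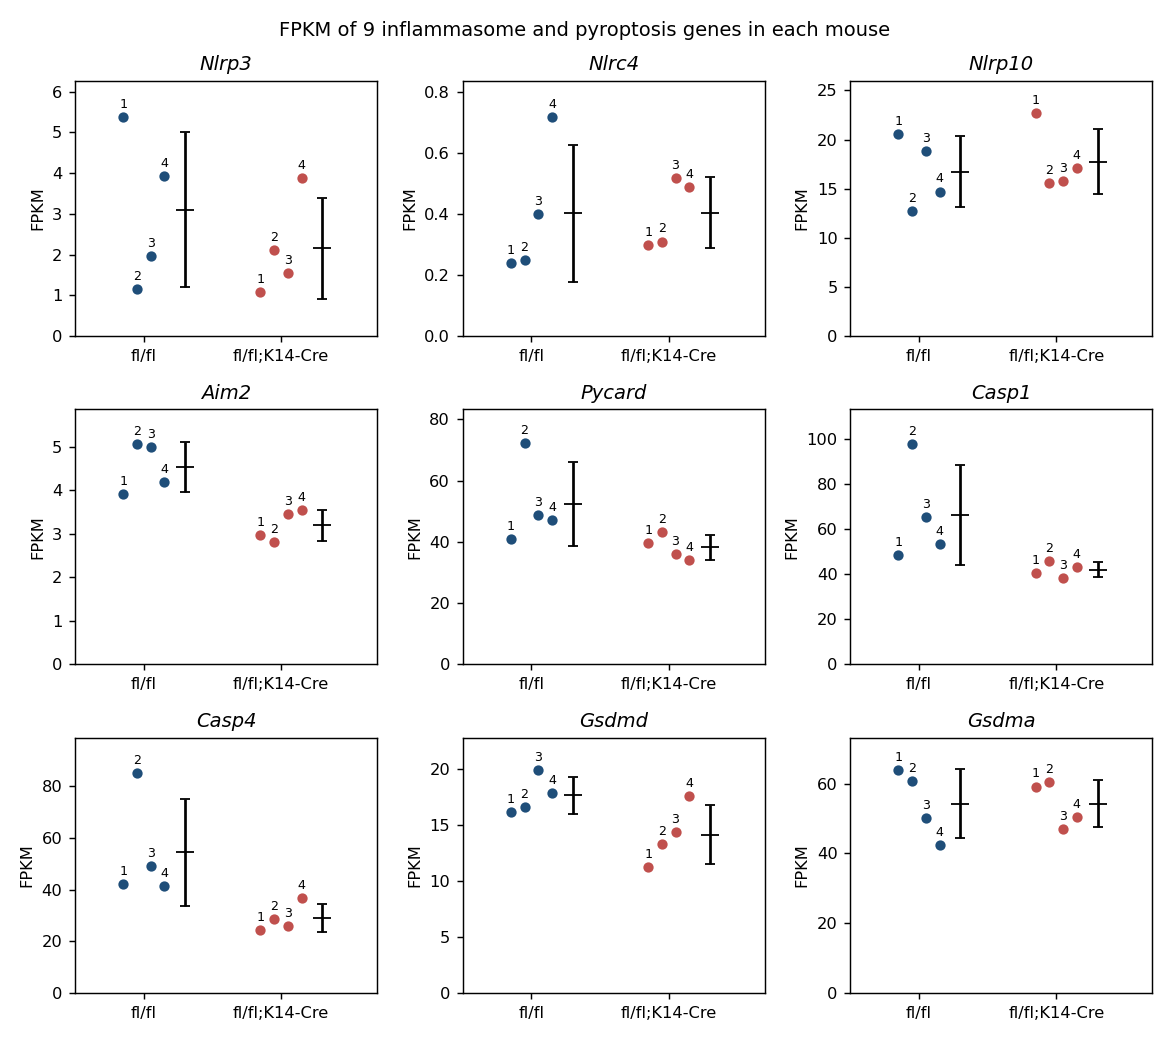
FPKM (vertical axes, from 0) of each of the 9 genes in the 4 control mice (blue, fl/fl) and the 4 knockout mice (red, fl/fl;K14-Cre), with replicate numbers beside the points and the mean and SD of each group in black. The groups lie apart for Aim2, Casp1 and Casp4 and overlap for the other 6 genes, and control mouse 2 has the highest Casp1 (98.1), Casp4 (85.0) and Pycard (72.3).

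Casp1 and Casp4 are neighbours on chromosome 9 and both had FPKM groups that did not overlap, so the sequences in front of this adjacent pair are shown. That of Aim2, whose groups did not overlap either, was searched in the same way and is not printed. Their log2 fold changes were the 2 lowest of the 9 genes with all 8 mice, but without control mouse 2, or with a transcript length trend removed, that of Nlrp3 was the lowest (-0.85 and -0.76). On GRCm38, Casp1 spans chr9:5298517-5307281 and Casp4 spans chr9:5308823-5336791, both on the plus strand and 1541 bases apart, and Casp12 begins 8650 bases after Casp4. The RefSeq promoter table (GRCm38.p6) held 8 windows for 6 of the 9 genes, of which the 250 bases upstream of each start were searched on both strands for 5 motifs. The windows of Casp1 and of the first Casp4 start are printed 5′ to 3′ on the plus strand, with matches to the NF-kB motif (GGG and TTTCC with any 2 bases between them) in capitals:
Casp1, chr9:5298267-5298516: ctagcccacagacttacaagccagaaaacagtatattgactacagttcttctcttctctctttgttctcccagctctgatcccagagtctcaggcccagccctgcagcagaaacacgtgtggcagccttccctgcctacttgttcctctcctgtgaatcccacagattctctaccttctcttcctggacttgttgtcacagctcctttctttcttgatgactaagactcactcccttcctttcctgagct
Casp4, chr9:5308599-5308848: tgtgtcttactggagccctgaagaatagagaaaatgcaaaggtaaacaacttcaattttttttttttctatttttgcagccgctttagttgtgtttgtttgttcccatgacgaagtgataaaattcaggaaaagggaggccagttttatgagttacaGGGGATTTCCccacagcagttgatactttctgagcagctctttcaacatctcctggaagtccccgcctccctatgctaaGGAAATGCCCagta

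The Casp4 window ends before the RefSeq start at chr9:5308849, whereas the deposited row begins at 5308823, so the end of the window lies inside the deposited span. The window held 2 NF-kB matches, GGGGATTTCC starting 93 bases before the RefSeq start and GGAAATGCCC, a match on the reverse strand, starting 14 bases before it. The second of these lies inside the deposited span. Both also lay in the overlapping window of the other Casp4 start, 104 and 25 bases before that one. The motif occurred in 1.41% of 32851 RefSeq promoter windows of the same length. The other motifs searched were the T-box letters AGGTGTG (in 5.10% of all windows), the interferon-gamma site TTCNNNGAA (7.02%), the interferon response element (GAAA, any 2 bases and GAAA, 2.98%) and TATAAA (12.4%). None of these 4 motifs was found in the 8 windows, and none of the 5 in the windows of Casp1, Aim2, Nlrp3, Nlrc4 and Pycard. A match or its absence describes the letters of these windows alone.

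Aim2, the sensor of double-stranded DNA in the cytosol, was lower in every knockout mouse than in any control, both in FPKM as deposited and in TMM-scaled CPM. Its FPKM was 2.98, 2.82, 3.46 and 3.55 in knockout mice 1 to 4 and 3.92, 5.07, 4.99 and 4.20 in control mice 1 to 4. Knockout mouse 4 came closest to the controls and control mouse 1 closest to the knockout mice. The means were 3.20 ± 0.357 FPKM (SD, n = 4) and 4.55 ± 0.573 FPKM (SD, n = 4), with a two-sided exact permutation p of 0.0286, which is the smallest that the 70 assignments of the mice allow. The log2 fold change was -0.66 ± 0.201 (SE), with an edgeR p of 0.00918 and an adjusted p of 0.498. It was -0.48 without control mouse 2. The deposited Aim2 locus, chr1:173349547-173466040 on the plus strand, overlaps Cadm3 on the opposite strand over 18593 bases, and reads of both strands cannot be told apart where the counting did not use strand.

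Nlrp3, the sensor that responds to a broad range of danger signals, varied more between mice of 1 genotype than between genotypes. Its FPKM was 1.07, 2.11, 1.54 and 3.89 in the knockout mice and 5.37, 1.16, 1.96 and 3.93 in the controls. Control mouse 1 was the highest, and knockout mouse 4 and control mouse 4 were almost level, while control mouse 2, the highest library for the caspases, was the second lowest for Nlrp3. The log2 fold change was -0.63 ± 0.464 (SE), with an edgeR p of 0.204, an adjusted p of 0.520 and an exact permutation p of 0.457. Leaving out single mice moved it from -1.07 (without knockout mouse 4) to -0.27 (without control mouse 1), and it was -0.42 without knockout mouse 1. The first of these had an edgeR p of 0.0419 and an adjusted p of 0.675. Nlrp3 lies at chr11:59541569-59566955.

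Nlrc4, which with NAIP proteins detects bacterial flagellin and secretion systems, was the lowest of the 9 genes, with 15 to 52 counts per library. Its FPKM was 0.30, 0.31, 0.52 and 0.49 in the knockout mice and 0.24, 0.25, 0.40 and 0.72 in the controls. The controls thus held both the lowest and the highest values, and the means were 0.405 ± 0.116 and 0.403 ± 0.224 FPKM (SD, n = 4 each). The log2 fold change of -0.09 ± 0.367 (SE) had an edgeR p of 0.815.

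Nlrp10, a family member without the leucine-rich repeats of the others and expressed in epidermis, had much higher values than the other 3 sensors in every mouse. Its FPKM was 22.7, 15.5, 15.7 and 17.1 in the knockout mice and 20.6, 12.7, 18.8 and 14.7 in the controls. Mouse 1 was the highest of each genotype and the groups overlapped over most of their range. Its log2 fold change was -0.06 ± 0.182 (SE), with an edgeR p of 0.749 and an exact permutation p of 0.714. Nlrp10 lies at chr7:108921853-108930158 and Nlrc4 at chr17:74426255-74459144, both on the minus strand.

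Pycard, the adaptor that joins sensors to caspase-1, had FPKM values of 39.7, 43.3, 36.1 and 33.9 in the knockout mice and 40.8, 72.3, 48.9 and 47.2 in the controls. Only knockout mouse 2 lay above the lowest control, and control mouse 2 was far above the other 7 mice. The means were 38.3 ± 4.13 FPKM and 52.3 ± 13.8 FPKM (SD, n = 4 each, exact permutation p = 0.0571). Without control mouse 2 the control mean was 45.6 ± 4.25 FPKM (SD). On the log2 scale the difference was -0.68 ± 0.283 (SE), with an edgeR p of 0.0386 and an adjusted p of 0.498. Without that mouse it was -0.30, with an edgeR p of 0.0334 and an adjusted p of 0.638. Leaving out any 1 of the knockout mice took the edgeR p above 0.05, to 0.0620, 0.0507, 0.0833 and 0.0915 for knockout mice 1 to 4. The deposited Pycard row, chr7:127991373-127996598, is listed on the plus strand and extends beyond the RefSeq gene, which ends at 127993867 and lies on the minus strand.

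Casp1, the central inflammasome protease, was among the most abundant of the 9 genes in FPKM, a scale per transcript length. It stood at 40.6, 46.1, 38.4 and 43.3 FPKM in the knockout mice and at 48.4, 98.1, 65.4 and 53.3 FPKM in the controls. All 4 knockout mice lay below all 4 controls, within a narrow range, whereas control mouse 2 stood well above the other controls. The means were 42.1 ± 3.33 and 66.3 ± 22.4 FPKM (SD, n = 4 each, exact permutation p = 0.0286). The control mean without mouse 2 was 55.7 ± 8.76 FPKM (SD). The log2 fold change was -0.90 ± 0.316 (SE), with an edgeR p of 0.0185 and an adjusted p of 0.498. It was -0.45 without control mouse 2, with an edgeR p of 0.00582, an adjusted p of 0.638 and the groups still apart.

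Casp4, the lipopolysaccharide-responsive caspase, had the lowest log2 fold change of the 9 genes with all 8 mice, but not without control mouse 2. Its FPKM was 24.3, 28.6, 25.9 and 36.6 in the knockout mice and 42.1, 85.0, 49.1 and 41.3 in the controls. The groups did not overlap, and knockout mouse 4 was the closest to the controls. The means were 28.9 ± 5.43 and 54.3 ± 20.7 FPKM (SD, n = 4 each), a control mean 1.88 times the knockout mean, with an exact permutation p of 0.0286. For Casp4 the log2 fold change was -1.18 ± 0.353 (SE), with an edgeR p of 0.00822 and an adjusted p of 0.498. Without control mouse 2, the control mean was 44.1 ± 4.28 FPKM (SD) and the log2 fold change -0.66 ± 0.140 (SE). The edgeR p was then 0.00121 and the adjusted p 0.638.

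Gsdmd, the pore-former downstream of both caspases, had FPKM values of 11.3, 13.3, 14.3 and 17.6 in the knockout mice and 16.2, 16.6, 19.9 and 17.9 in the controls. Only knockout mouse 4 reached the range of the controls in FPKM. Control mouse 2 was the second lowest control in FPKM but the highest of the 8 mice in TMM-scaled CPM, at 39.1 against 33.7 in control mouse 3, the next. The means were 14.1 ± 2.63 and 17.7 ± 1.67 FPKM (SD, n = 4 each, exact permutation p = 0.0857). Its log2 fold change was -0.51 ± 0.177 (SE), with an edgeR p of 0.0178 and an adjusted p of 0.498. It was -0.40 without control mouse 2, and the edgeR p was 0.0560 without knockout mouse 1. Gsdmd lies at chr15:75862144-75867408 on the plus strand.

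Gsdma, a gasdermin of skin epithelium, had the same mean in both genotypes in FPKM. It stood at 59.2, 60.5, 47.0 and 50.4 FPKM in the knockout mice and at 63.8, 60.8, 50.2 and 42.3 FPKM in the controls, so the knockout values fell wholly within the control range. The means were 54.3 ± 6.62 and 54.3 ± 9.88 FPKM (SD, n = 4 each, exact permutation p = 1), and the log2 fold change was -0.22 ± 0.227 (SE, edgeR p = 0.355, adjusted p = 0.600). On the log2 scale it was -0.01 without control mouse 2 and -0.37 without control mouse 4. Gsdma lies at chr11:98664337-98677708, and Gsdma2 ends 6372 bases before it. Of 2677 stretches of 50 bases in its transcript, the read length, 8.26% also occur in Gsdma2 or Gsdma3, so a small part of its counts is uncertain. The share was 1.09% for Nlrc4, 0.628% for Aim2 and 0 for the other 6 genes.

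Ranked by mean FPKM over the 8 mice, the order of the 9 genes was Gsdma (54.3), Casp1 (54.2), Pycard (45.3), Casp4 (41.6), Nlrp10 (17.2), Gsdmd (15.9), Aim2 (3.87), Nlrp3 (2.63) and Nlrc4 (0.404). Some neighbours in this order were not separated. Gsdma exceeded Casp1 in 5 of 8 mice, Pycard exceeded Casp4 in 4 and Nlrp10 exceeded Gsdmd in 4. In these 3 pairs the first gene was ahead in 4, 3 and 3 of the 4 knockout mice and in 1 of the 4 controls each time. This difference between the genotypes was not tested. Aim2 exceeded Nlrp3 in 6 of 8 mice. The other 4 steps of the order held in all 8 mice.

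Across the 8 mice, the 5 genes with an unadjusted p under 0.05 varied together in log2 CPM. Pearson's r ranged from 0.71 (Pycard and Gsdmd) to 0.98 (Pycard and Casp1), and these values describe mice that share control mouse 2 and the genotype difference. Without control mouse 2 the same pairs ranged from 0.43 (Pycard and Gsdmd) to 0.93 (Aim2 and Gsdmd). The r of Nlrp3 to these 5 genes was between -0.22 and 0.28, and without control mouse 2 it was between 0.046 (Pycard) and 0.65 (Casp4), which overlaps the range among the 5 genes. Nlrc4 and Gsdma had an r of -0.75, and of -0.99 without control mouse 2. Among 14409 genes, those whose log2 CPM was most like each gene over the 8 mice were Zfp758, Plscr1 and Fgfr1op2 for Casp1 (r from 0.996 to 0.998), and 5430427O19Rik, Bik and Pilra for Casp4 (0.992 to 0.995). They were A630001G21Rik, Gpr141 and Evi2a for Aim2 (0.988 to 0.992), Coro1a, Arl5c and Rhoh for Gsdmd (0.983 to 0.991), and Vps29, Mrpl1 and Anxa1 for Pycard (all 0.998). For the genes with other patterns they were Csrnp1, Lipg and Steap4 for Nlrp3 (0.931 to 0.934), Orai3, Gnpda1 and Ms4a14 for Nlrc4 (0.946 to 0.957), Pla2g5, 4921536K21Rik and Scamp1 for Nlrp10 (0.945 to 0.966), and 4930438A08Rik, Hdac8 and Calml3 for Gsdma (0.969 to 0.991).

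Of the lists of immune cell markers, the sums of 2 lay apart between the genotypes and those of 2 overlapped. The counts of marker genes below stand beside 5.91% of all genes lower and 2.45% higher at an unadjusted edgeR p under 0.05. The summed CPM of 10 neutrophil markers was 222 to 345 in the knockout mice and 390 to 1000 in the controls, without overlap (exact permutation p = 0.0286), and 8 of the 10 were lower at an unadjusted edgeR p under 0.05. The control range was 390 to 809 without control mouse 2. The sum of 6 mast cell markers was 523 to 563 CPM in the knockout mice and 643 to 1370 CPM in the controls, again without overlap, with 3 of the 6 lower at that p. The 10 monocyte and macrophage markers summed to 1484 to 2228 CPM against 1683 to 3768 CPM, with 5 of the 10 lower, and the 6 T cell markers tested summed to 26.3 to 34.2 CPM against 26.7 to 71.2 CPM, with 1 lower (exact permutation p = 0.143 for each sum). With control mouse 2 left out, the control ranges were 1683 to 2485 CPM for these myeloid markers, 26.7 to 44.6 CPM for T cells and 643 to 732 CPM for mast cells. Immune cells of these types carry several of the 9 genes, and the part of these markers in the values above was not tested.

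The 10 keratinocyte markers, which include Krt5 and Krt14 of the cells that carry the deletion, summed to 8292 to 10770 CPM in the knockout mice and 8879 to 11179 CPM in the controls, and 0 of the 10 had an unadjusted edgeR p under 0.05. Hair follicle markers summed to 120 to 2617 CPM against 89.2 to 213 CPM, with 7 of 10 higher in the knockout mice at that p. The sums of skeletal muscle markers, at 12041 to 21720 CPM and 15398 to 25442 CPM, were present in every mouse and overlapped between the genotypes. The sums of the sebaceous gland, adipocyte and endothelial lists overlapped between the genotypes. No gene of these marker lists was at 0 in a mouse.

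**Figure D2:**
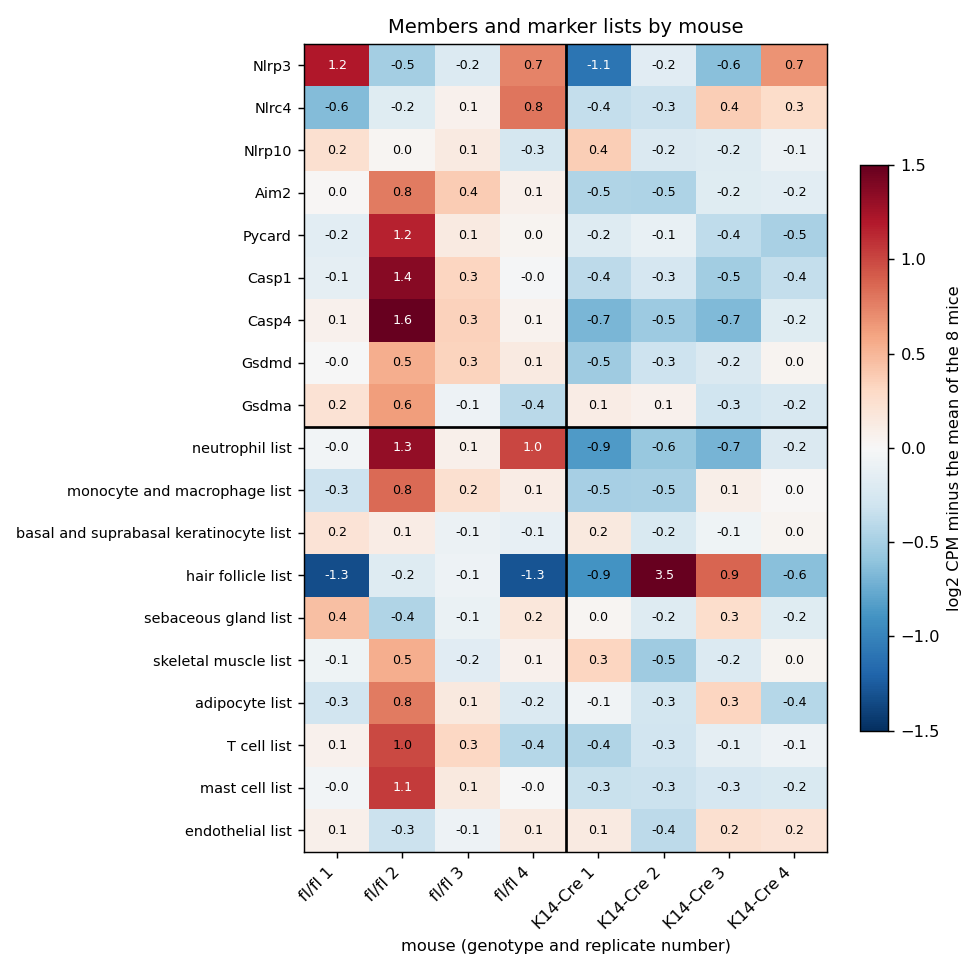
Log2 CPM minus the mean of the 8 mice (colour, capped at 1.5 in each direction, and printed in each cell) for the 9 genes above the line and for the summed marker lists below it, in the 4 control mice (left) and the 4 knockout mice (right). Control mouse 2 is high for Casp4 (1.60), Casp1 (1.37), Pycard (1.16) and Aim2 (0.78), while Nlrp3 is high in control mouse 1 and in mouse 4 of each genotype. Control mouse 2 is also the highest of the 8 mice for the neutrophil, mast cell, T cell, monocyte and macrophage, adipocyte and skeletal muscle lists. It is the lowest for the sebaceous gland list.

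Control mouse 2 also differed from the others by a trend with transcript length, with short transcripts higher and long ones lower. At the length of Casp4 the trend in that mouse was 0.73 on the log2 scale, at that of Casp1 0.63, at that of Nlrp3 -0.51 and at that of Nlrp10 -0.67. Once this trend was taken out of each library, Casp4 had a log2 fold change of -0.75, with -0.53 for Casp1, -0.54 for Pycard, -0.73 for Aim2 and -0.30 for Gsdmd. The other 4 genes moved as well, Nlrp3 to -0.76, Nlrp10 to -0.34, Nlrc4 to -0.25 and Gsdma to -0.05. The edgeR p of Gsdmd was then 0.0536 (adjusted p = 0.535), and Casp4, Casp1, Pycard and Aim2 kept an unadjusted p under 0.05.

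**Figure D3:**
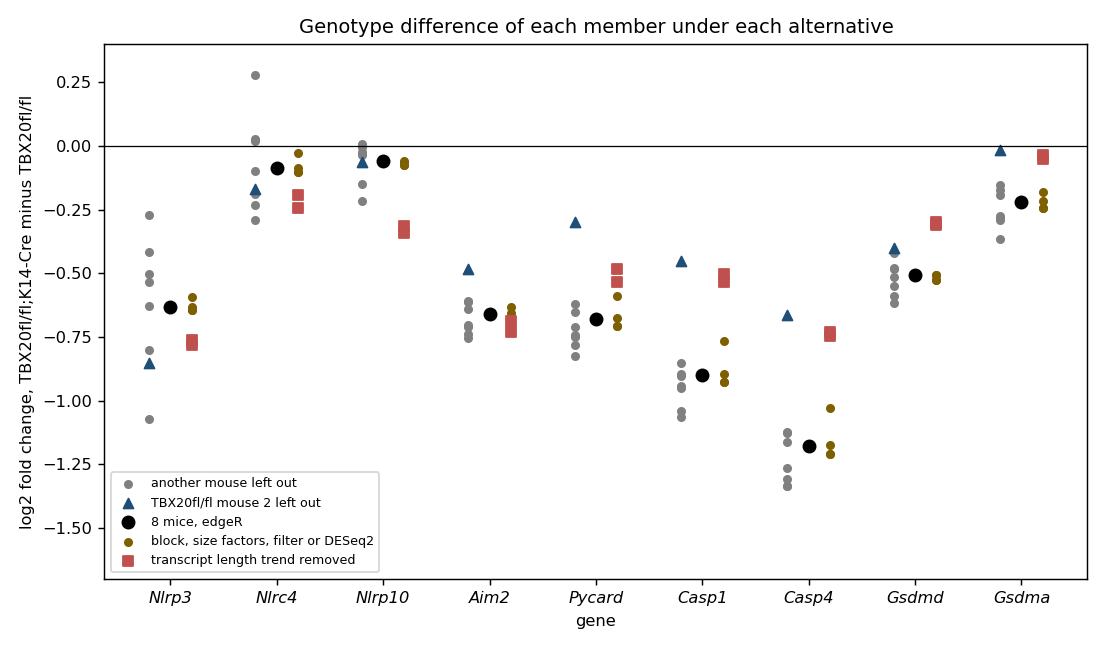
Log2 fold change (knockout minus control, vertical axis) of each of the 9 genes with all 8 mice (black), with control mouse 2 left out (blue triangles), with another mouse left out (grey), with the transcript length trend removed, alone or with the replicate block (red squares), and with other tests, filters, scaling or the replicate block (brown). Casp4 moves from -1.18 to -0.66 and Casp1 from -0.90 to -0.45 without control mouse 2, Nlrp3 spreads from -1.07 to -0.27, and Nlrc4 and Nlrp10 lie on both sides of 0.

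Among 45 further genes of the pathway in 5 lists, 44 could be tested, 14 were lower in the knockout mice at an unadjusted edgeR p under 0.05 and 0 were higher at that p, and none passed the adjusted threshold. Over all genes tested, 5.91% were lower and 2.45% higher at that p. The count of lower genes was 15 of 44 without control mouse 2 but 9 of 43 without knockout mouse 1, beside 4.50% and 3.15% of all genes. With the length trend removed 16 were lower and 2 higher, beside 5.21% of all genes lower and 3.45% higher. The median log2 fold change of the 44 genes with all 8 mice was -0.26. The cytokines that these caspases mature or pyroptosis releases, with their antagonists, had 6 of 6 lower at that p and a median of -0.82. Without control mouse 2 the count was 5 and the median -0.56, and without knockout mouse 1 the count was 3. With the length trend removed the count was 4 and the median -0.63, beside 5.21% of all genes lower. With all 8 mice the lowest was Il1b, the main caspase-1 substrate, at -2.06 ± 0.563 (SE), followed by the receptor antagonist Il1rn at -0.91 and Il18 at -0.82. Without control mouse 2, Il1b was at -1.43 ± 0.433 (SE), Il1rn at -0.61 and Il1a at -0.55. Il1a, an alarmin released by lytic death, was at -0.81 with its FPKM at 13.1 to 16.1 in the knockout mice and 19.0 to 26.5 in the controls.

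Guanylate-binding proteins and Irgb10, a GTPase of another family, expose bacterial lipopolysaccharide and DNA to caspase-11 and AIM2. Of the 5 genes of this list, 3 were lower at that p, Gbp2 and Gbp3 of the 4 guanylate-binding proteins and Irgb10, beside 5.91% of all genes, and the median was -0.69. The count was 2 without knockout mouse 1, 4 without control mouse 2 and 5 with the length trend removed, beside 3.15%, 4.50% and 5.21% of all genes lower. Gbp2 averaged 92.3 ± 29.5 FPKM in the knockout mice and 145 ± 29.9 FPKM in the controls (SD, n = 4 each, exact permutation p = 0.0571). Its log2 fold change was -0.84, that of Gbp3 was -0.70, and that of Irgb10, listed as Gm12250, was -0.69. Gbp5 and Gbp7 were at -0.53 and -0.31.

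Other caspases and death-domain proteins had 3 of 9 lower at that p, beside 5.91% of all genes. With the length trend removed 4 were lower and 1 higher, beside 5.21% of all genes lower and 3.45% higher. The 3 lower with all 8 mice were Mlkl, the pore-former of necroptosis, Casp8, the initiator caspase that links death receptors to both routes, and Casp12, the neighbour of Casp4. These 3 are among the 8 list genes named for the smallest edgeR p, and their FPKM groups did not overlap, as for 1.92% of all genes in that direction. Mlkl stood at 10.7 to 15.4 FPKM in the knockout mice and 16.7 to 19.2 FPKM in the controls, with a log2 fold change of -0.73 ± 0.193 (SE; edgeR, adjusted p = 0.498). Casp8 was at 21.4 to 23.7 FPKM against 25.3 to 36.7 FPKM, with a log2 fold change of -0.68. Casp12 was at 19.3 to 20.8 FPKM against 23.7 to 38.4 FPKM, with a log2 fold change of -0.77. Without control mouse 2 the log2 fold change was -0.47 for Casp12, -0.43 for Casp8 and -0.56 for Mlkl. Casp14, a caspase of cornifying keratinocytes, was the highest of the list at 0.56 (edgeR, adjusted p = 0.498).

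Of the other sensors and sensor regulators, 1 of 16 was lower at that p (Nlrp12, at -0.83), where 5.91% of all genes were. The count was 2 without control mouse 2, beside 4.50% of all genes lower. With the length trend removed 3 were lower and 1 higher, beside 5.21% of all genes lower and 3.45% higher. The median was 0.036 with all 8 mice, but it was -0.04 without control mouse 2 and -0.18 with the length trend removed. The NAIP partners of Nlrc4 and the Nlrp3 cofactor Nek7 lay between -0.07 and 0.10, and the ATP receptor P2rx7 was the highest at 0.57 (edgeR, adjusted p = 0.498). Nlrp6, Nlrp9b and the NAIP gene Naip1 had 0 to 5, 0 to 5 and 0 to 9 counts per library. At such counts a difference would be hard to detect, and the SE of Naip1 was 0.853. Of the other gasdermins and Ninj1, 1 of 8 tested was lower at that p, beside 5.91% of all genes, with a median of -0.18: Ninj1, which ruptures the membrane of dying cells, at -0.51. Without knockout mouse 1 the count was 0 of 7, and with the length trend removed it was 0 of 8 with a median of -0.07. Gsdme, another gasdermin, was at -0.28 (edgeR, adjusted p = 0.514). Gsdmc2, Gsdmc4 and Pjvk of this list had 2 to 18, 0 to 7 and 0 to 3 counts per library, so a difference in them would be hard to detect. Nlrp12, Ninj1, Irgb10, Il18, Gbp5, Gbp7, Casp14, Nek7, P2rx7 and Gsdme were named after their values were seen. The same holds for Nlrp6, Nlrp9b, Naip1, Gsdmc2, Gsdmc4 and Pjvk.

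**Figure D4:**
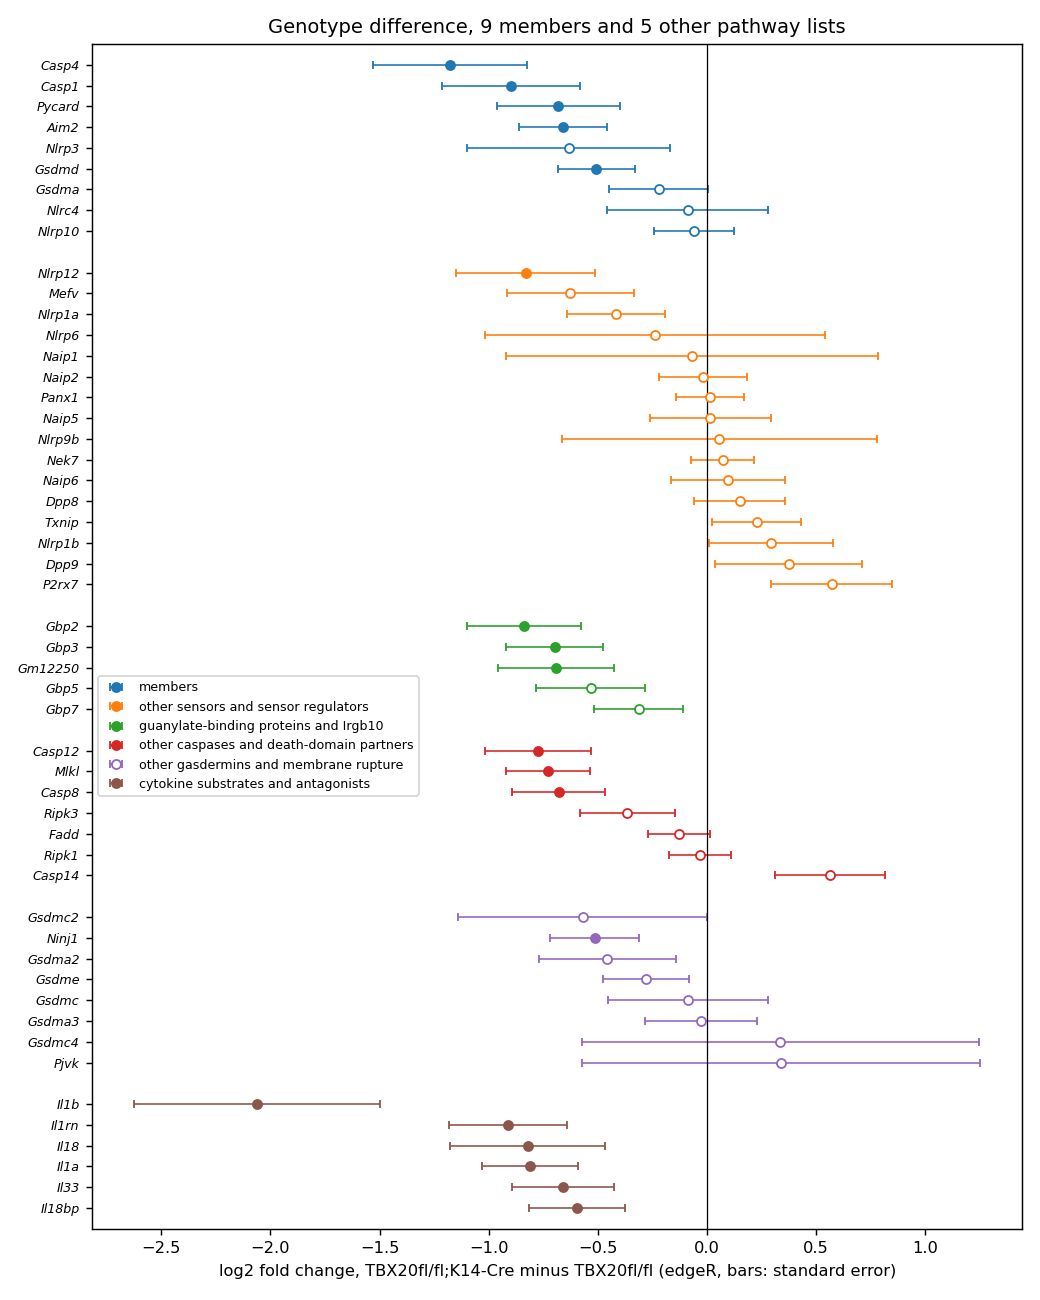
Log2 fold change (knockout minus control, horizontal axis, edgeR) with its standard error for the 9 genes and for 42 of the 44 tested genes of 5 other pathway lists, coloured by list, with filled points for an unadjusted p under 0.05. All 6 cytokine genes and all 5 genes of the list of guanylate-binding proteins and Irgb10 lie below 0, whereas the other sensors spread on both sides, from -0.83 to 0.57.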

How the data were processed

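The authors sequenced skin RNA of 8 mice (1 read of 50 bases per fragment), and reads were filtered with SOAPnuke and aligned with HISAT. The program behind the gene counts, and whether counting used strand, are not given in the sources used here. Counts were deposited as estimated counts without normalization, and 69.0% of the values above 0 are not whole numbers. The authors also deposited FPKM values, made with the Dr. Tom platform. Their deposited columns of group means, log2 fold changes, p-values and q-values for comparisons between the mice were not used. Depth was 16056282 to 19880654 counts per mouse, where 3 counts equal 0.151 to 0.187 CPM (counting error only).

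Counts were rounded, genes under 10 counts in the sum of the 8 mice were dropped (17124 kept), and genotypes were compared with edgeR 4.0.16 (TMM, quasi-likelihood test, Benjamini-Hochberg adjustment over all genes, threshold 0.05) in R 4.3.3. The SE was taken as the log2 fold change over the root of its F statistic. FPKM was compared with limma 3.58.1 on log2(FPKM + 1) for 15969 genes (mean FPKM of 0.1 or more), and per gene by a two-sided exact permutation test over 70 assignments (9 genes and 8 named pathway genes, unadjusted). DESeq2 1.42.0, other filters, a replicate block, removal of a transcript length trend, and leaving out each mouse were alternatives. Python 3.11.15 was used for summaries. The tests were tested on simulated data. The replicate numbers come from the sample titles, which do not say that same-numbered mice belong together, so the replicate block was used as an alternative only. Deviations from the group mean had r = 0.407, 0.313, 0.279 and 0.150 over 14409 genes for the 4 same-numbered pairs. Mice of different numbers ranged from -0.492 to 0.390. Knockout mouse 4 was closer to control mouse 1 (0.390) than to control mouse 4 (0.150), so these values do not establish pairing. The mice are different animals, and p-values judge the difference between genotypes against the spread between mice.

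The 9 genes and all lists were chosen with earlier results of these data known. Beyond the 9 genes, the 8 list genes with the smallest edgeR p were named, with 3 genes of the most similar pattern for each of the 9. Trac and Trdc of the T cell list were not matched in the table. The values of 2 genes of the pathway lists are not reported here, and the counts and medians of their list include them.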

Additional observations from a re-analysis of the deposited data

Results flagged for a closer look

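In 3 of 54 groups of 4 mice examined, 1 mouse lay far from the other 3 of its genotype by Dixon's criterion, where chance gives about 2.7. Gbp2 stood at 135.89 FPKM in knockout mouse 4 against 70.9 to 81.3 FPKM in the other knockout mice, and its groups overlapped only through that mouse. The hair follicle markers summed to 2617 CPM in knockout mouse 2 against 120 to 411 CPM in the other knockout mice. The mast cell markers summed to 1370 CPM in control mouse 2 against 643 to 732 CPM in the other controls. The 9 genes were examined in FPKM only, and none of them had such a mouse on that scale. In TMM-scaled CPM, control mouse 2 stood at 156 for Casp4 against 53.4 to 65.0 in the other controls. It stood at 205 CPM for Pycard against 82.6 to 101 CPM, and at 195 CPM for Casp1 against 68.8 to 95.1 CPM.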

How the results depend on the processing

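No alternative in edgeR or limma called a gene at an adjusted p of 0.05, whereas the DESeq2 Wald test called 10 genes, none of them among the 9 (their adjusted p was 0.160 to 0.893). The number of the 9 genes with an unadjusted p under 0.05 was 3 to 5 with single mice left out. It was 3 (Aim2, Casp1 and Casp4) without knockout mouse 1, where Gsdmd was at 0.0560 and Pycard at 0.0620 in edgeR. Without knockout mouse 4 it stayed at 5, with Nlrp3 in and Pycard out. With the replicate block the count stayed at 5, the median log2 fold change was -0.59 and the lowest adjusted p was 0.405. The block added to the uncorrected edgeR fit changed no call of the 9 genes, but added to the length correction it took Gsdmd from an edgeR p of 0.0536 to 0.0272 and the count from 4 to 5. Without single mice the median was -0.64 to -0.40 (the latter without control mouse 2), and 3 or 4 genes had FPKM groups apart. Differences near 0 changed sign. Leaving out single mice gave a log2 fold change of -0.29 to 0.28 for Nlrc4 and -0.22 to 0.0086 for Nlrp10. The FPKM difference (knockout minus control) then ran from -4.00 to 3.16 for Gsdma, from -0.0517 to 0.108 for Nlrc4 and from -0.588 to 2.34 for Nlrp10. With the length trend removed from FPKM it was 5.50 for Gsdma, -0.0367 for Nlrc4 and -1.79 for Nlrp10, and in TMM-scaled CPM it was -0.0881 for Nlrc4 and -3.17 for Nlrp10. The cause was not tested. With 3 mice against 4 the exact test cannot go under 0.0571, and Nlrc4 had 15 to 52 counts per library. The values of the other pathway genes without control mouse 2, without knockout mouse 1 and with the length trend removed were added after seeing the data.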
